A study of Mus musculus with 12 samples.

Results

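The CpG cytosines described here lie in the first part of the mouse gene Letmd1, past its promoter, at chr15:100299982-100300461 of the mm9 build. They were chosen by position, as the cytosines of CpG dinucleotides in that window read out 10 times or more in each of the 12 samples. Of 44 CpG cytosines in the window with deposited read-outs, 36 met the minimum. In all, 384 CpG cytosines in 14 loci met it, and the other 348 lie in 13 loci. The 8 of the 44 that did not are Watson-strand cytosines between 100300170 and 100300273. No Crick-strand cytosine past 100300308 is among the 44, so the CpGs from 100300339 onward were read on the Watson strand only. Targeted bisulfite sequencing (BS-seq) and oxidative bisulfite sequencing (oxBS-seq) of PCR amplicons were made from v6.5 mouse embryonic stem cells and from v6.5 cells in which Tet2 was stably knocked down with a short hairpin RNA under puromycin selection (Tet2kd). The titles of the v6.5 samples also carry the word knock-down, whereas their source names and genotype entries give parental wild-type cells, and these entries were followed. Each of the 4 groups had 3 replicates from separate cultures, and the DNA of each replicate was split between the assays. The Tet2kd cells carried the hairpin vector and the v6.5 cells did not, so effects of the vector, the selection or the clones cannot be told apart from those of the knockdown. No Tet2 transcript was measured in these files, so the knockdown itself was not checked here. The study reports that its efficiency was assessed with quantitative PCR and western blot.

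In mammals 5-methylcytosine (5mC) sits mostly on CpG cytosines, and TET proteins such as TET2 oxidize it to 5-hydroxymethylcytosine (5hmC) and further forms, a step on one route back to unmodified cytosine. After bisulfite treatment unmodified cytosine is read as T while 5mC and 5hmC stay C, whereas oxidation before bisulfite makes 5hmC read as T too, so the C share of oxBS-seq read-outs reports mainly 5mC. Letmd1 codes for a mitochondrial protein with a LETM1-like domain. Its annotated transcript starts at 100299465 on the plus strand. Intron 1 ends at 100300115, exon 2 (coding) runs from 100300116 to 100300267, and intron 2 follows. The cytosines lie 561 to 915 bp downstream of the start, 14 in intron 1, 13 in exon 2 and 9 in intron 2. Of them 16 are on the Watson (plus) and 20 on the Crick (minus) strand, and 12 CpG pairs have both strands measured.

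The stretches below, read from the mm9 sequence on the plus strand, hold the cytosines that the results turn on, with every CpG in capitals. They follow the gene from the least modified end of the window, across the border of intron 1 and exon 2, to the most modified end.
chr15:100300036-100300065 (intron 1): aacCGtatgtttacCGaggggtcctaCGta
chr15:100300094-100300123 (border of intron 1 and exon 2): gtctctttggtcttCGttgtaggtcttcaa
chr15:100300136-100300152 (exon 2): ctcCGaaggCGgaCGtg
chr15:100300189-100300215 (exon 2): gCGattaaCGgatCGtaccatCGtttc
chr15:100300271-100300300 (intron 2): aaCGctaacattgagaagccCGaatctgct
chr15:100300337-100300356 (intron 2): gcCGggtcCGctgctgCGct

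Read-outs over genomic cytosines ranged from 4505229 to 18096597 per sample. Over the 36 cytosines the depth was uneven between strands. Watson cytosines had 13 to 1555 read-outs with a median of 244, and Crick cytosines 86 to 10813 with a median of 2469. At 64 read-outs a C share of 50% has a Wilson 95% interval from 38.1% to 61.9%, and at 10813 read-outs from 49.1% to 50.9%. These intervals cover counting error only, since PCR copies are not separate molecules. The oxidation efficiency estimated from the 5hmC control DNA also differed between replicates. The v6.5 replicates had 0.781, 0.459 and 0.741, and those of Tet2kd 0.618, 0.529 and 0.453. The genotypes overlapped only through v6.5 replicate 2, as the other v6.5 values lay above every Tet2kd value. The study describes a higher efficiency in Tet2kd, an order that these values do not show. The part of oxidation efficiency in the oxBS-seq differences below was not tested, beyond its use in the 5mC and 5hmC estimates.

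The C share climbed along the gene in both genotypes. In v6.5 BS-seq the mean over 3 replicates went from 6.71% at 100300051, the lowest of the 36 cytosines over the BS-seq samples, to 85.0% at 100300353, the highest. In Tet2kd the same 2 cytosines had 22.6% and 91.2%. In bins of 100 bp, the v6.5 BS-seq mean was 14.7% ± 1.81 (SD, n = 3) over 8 cytosines at 500 to 600 bp and 38.9% ± 1.33 over 12 at 600 to 700 bp. It was 34.5% ± 1.85 over 7, all Crick, at 700 to 800 bp and 66.4% ± 5.5 over 8 at 800 to 900 bp. The Tet2kd means in these bins were 31.9% ± 1.00, 59.99% ± 1.71, 59.0% ± 0.180 and 82.3% ± 0.555. The 1 cytosine at 900 to 1000 bp had 65.8% ± 4.11 in v6.5, against 79.2% ± 3.05 in Tet2kd. The climb was thus not smooth. It dipped in exon 2 at 100300211, a cytosine picked after its values were seen, where the v6.5 and Tet2kd BS-seq means were 14.9% and 36.8%, while 100300203, 8 bp upstream, had 47.8% and 75.3%. Across the 36 cytosines, Pearson's r of the BS-seq mean with distance was 0.804 in v6.5, against 0.793 in Tet2kd (Spearman's rho 0.789 and 0.821). In oxBS-seq r was 0.758 and 0.789. By strand, r in BS-seq was 0.891 on Watson and 0.659 on Crick cytosines in v6.5, against 0.855 and 0.707 in Tet2kd. The strands covered different stretches, since the Crick cytosines ended at 843 bp and the 4 from 874 to 915 bp were all Watson. The r values of the strands are thus from unlike sets of positions, and the far end was read on Watson alone. Neighbouring cytosines share reads, so these values are descriptions only. The size of the genotype difference did not follow distance in the same way (r = -0.169 in BS-seq and -0.044 in oxBS-seq).

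**Figure D1:**
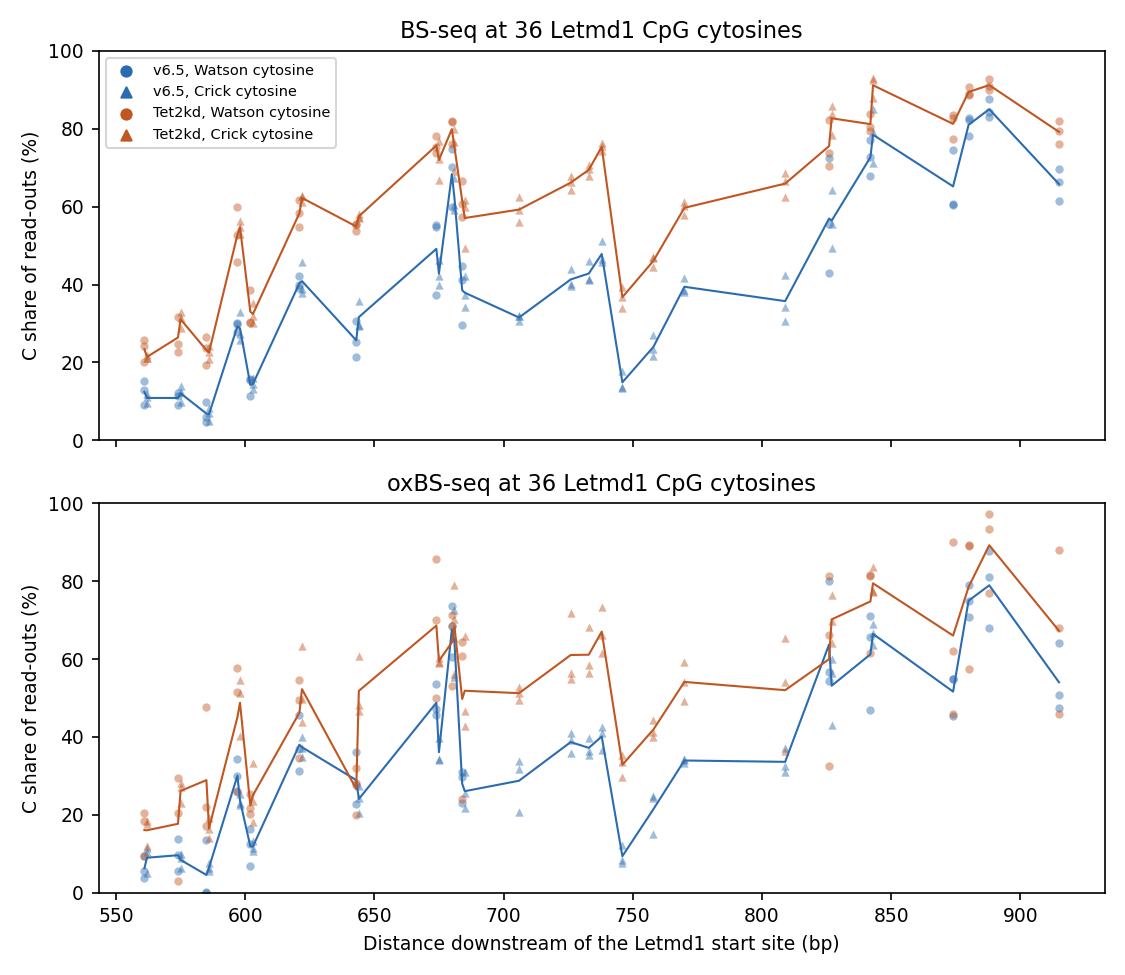
C share of read-outs (%, vertical axis) against distance downstream of the Letmd1 start site (bp, horizontal axis) at 36 CpG cytosines, by BS-seq (top) and oxBS-seq (bottom). Points are the 3 replicates of each genotype, circles Watson and triangles Crick cytosines, and lines join the means; in BS-seq the Tet2kd line lies above the v6.5 line at every cytosine, and in oxBS-seq the replicates are spread more widely.

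The knockdown cells had higher C shares throughout the window in BS-seq. The mean over the 36 cytosines was 38.7%, 38.4% and 41.5% in the v6.5 replicates, against 59.3%, 58.1% and 59.7% in the Tet2kd replicates, so the groups did not overlap. The means were 39.5% ± 1.70 and 59.0% ± 0.839 (SD, n = 3), a difference of 19.506 percentage points (exact two-sided permutation p = 0.1, the smallest that 3 against 3 allows). The 348 CpG cytosines of the other loci had 56.8% ± 0.634 in v6.5, against 64.4% ± 0.452 in Tet2kd, a difference of 7.56 points. The study picked most of its loci for differential methylation in earlier antibody-based maps, while the rest showed none there. The other loci thus include some without such a difference, here and in the comparisons below. Letmd1 was not compared with the differential loci alone. The Letmd1 difference exceeded that of the other loci by 11.9 points (exact permutation p = 0.1), with no overlap between the groups. This excess rests on weighting each cytosine equally. With the read-outs pooled over cytosines it was 1.75 points (exact permutation p = 1).

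By part of the gene, the v6.5 BS-seq means of intron 1 were 18.96%, 19.9% and 22.2%, against 40.5%, 38.7% and 39.6% in Tet2kd, a difference of 19.2 points. Exon 2 had 42.9%, 40.8% and 41.1% in v6.5, against 64.4%, 62.7% and 65.4% in Tet2kd, a difference of 22.6 points. Intron 2 had 63.4%, 63.7% and 72.0% in v6.5, against 81.4%, 81.6% and 82.8% in Tet2kd, a difference of 15.6 points. In none of the 3 did the groups overlap. Each gave an exact permutation p of 0.1.

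**Figure D2:**
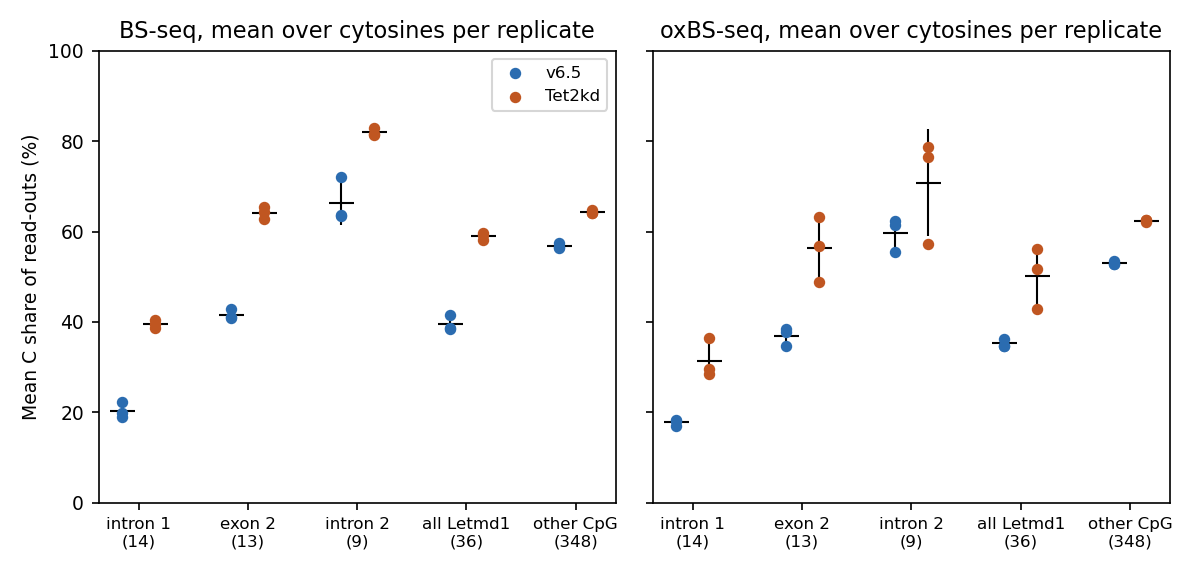
Mean C share of read-outs (%, vertical axis) over the cytosines of each part of the gene, over all 36 Letmd1 cytosines and over the 348 other CpG cytosines, in BS-seq (left) and oxBS-seq (right). Points are replicates and bars the mean with its SD over 3; in BS-seq all 3 Tet2kd replicates lie above all 3 v6.5 replicates in each set, and the Letmd1 Tet2kd means of oxBS-seq spread from 42.9% to 56.1%.

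All 36 cytosines had a higher BS-seq mean in Tet2kd, by 6.19 to 30.2 points with a median of 19.1, where the median of the other 348 was 3.52. By a quasi-binomial test with Benjamini-Hochberg adjustment over all 2428 cytosines, 19 of the 36 rose at an adjusted p under 0.05 and 0 fell, beside 32.3% of all CpG cytosines that rose and 0% that fell. Of the 19, 17 are Crick and 2 Watson cytosines. Without 1 replicate the count was between 0 and 6, and it was 0 without v6.5 replicate 1 or 2 or Tet2kd replicate 1 or 3. The Tet2kd values all lay above the v6.5 values at 35 of the 36, where 56.2% of all CpG cytosines did the same, and all below at 0, where 0.781% did. Fisher's exact test on summed counts called all 36 as rises, beside 71.9%. The exception to the separation of the groups was 100300291 in intron 2, named after its values were seen, with 55.6%, 42.9% and 72.4% in v6.5, against 82.4%, 70.5% and 73.7% in Tet2kd, on 29 to 171 read-outs.

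The 3 largest BS-seq rises were at 100300274 in intron 2, 100300108 in intron 1 and 100300140 in exon 2. The Crick cytosine 100300274 had 30.6%, 34.1% and 42.5% in v6.5, against 62.4%, 68.7% and 66.7% in Tet2kd. The Tet2kd values all lay above the v6.5 values, by 30.2 points on average, with an adjusted p of 0.0198 by the quasi-binomial test. The Crick cytosine 100300140 had 42.3%, 39.8% and 46.4% in v6.5, against 66.9%, 72.3% and 76.8% in Tet2kd, a rise of 29.1 points (adjusted p = 0.0321, quasi-binomial test). The rise at 100300108 is given with its partner below. At the other end, 100300353, already at 83.1%, 84.4% and 87.6% in v6.5, had 89.9%, 91.0% and 92.7% in Tet2kd, a difference of 6.19 points that did not pass the test (adjusted p = 0.127, quasi-binomial test).

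**Figure D3:**
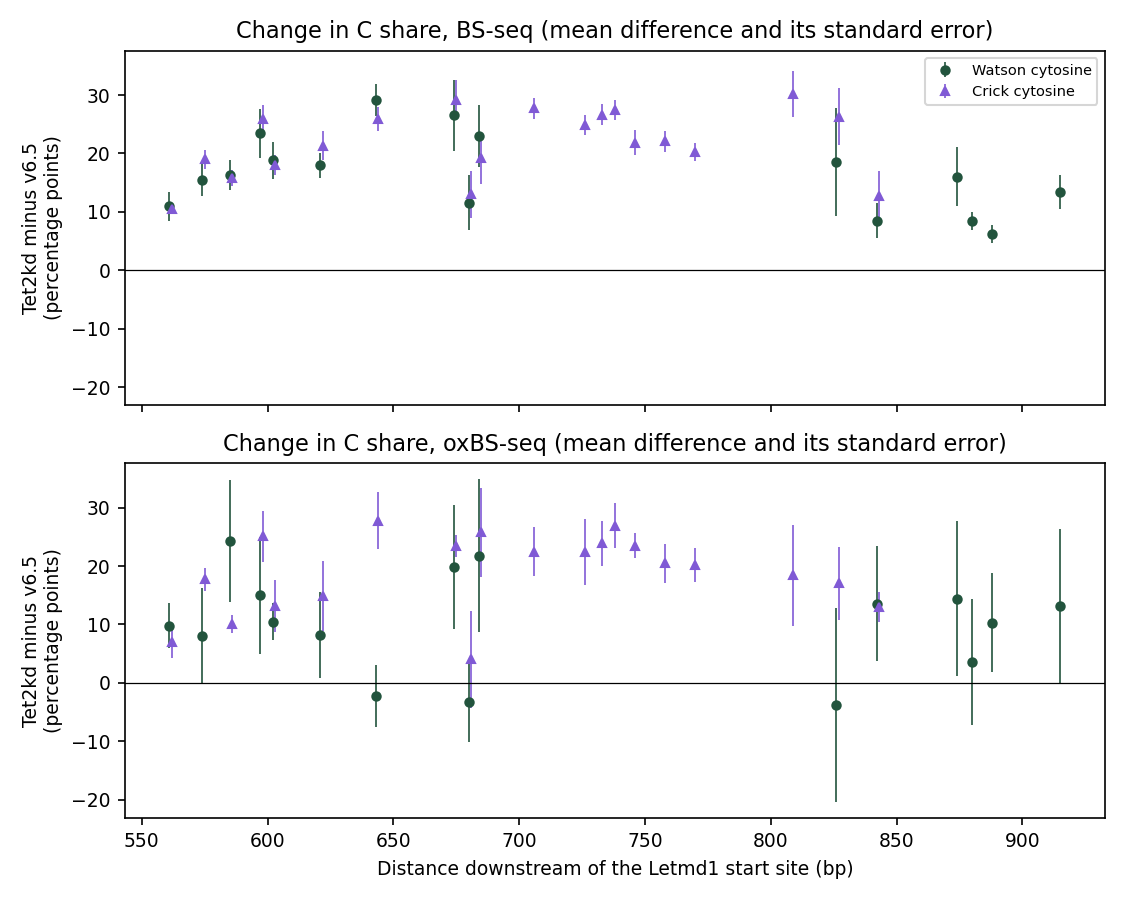
Difference in C share between Tet2kd and v6.5 (percentage points, vertical axis) against distance downstream of the Letmd1 start site (bp, horizontal axis), by BS-seq (top) and oxBS-seq (bottom). Points are differences of 3-replicate means with their standard error, circles Watson and triangles Crick; every BS-seq point is above 0, and 3 of the 36 oxBS-seq points, all on Watson cytosines, are below it.

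In oxBS-seq the difference was in the same direction but the Tet2kd replicates were further apart. The mean C share was 36.2%, 34.8% and 34.8% in v6.5, against 42.9%, 56.1% and 51.7% in Tet2kd. The groups did not overlap over the 36, and the difference was 15.0 points (exact permutation p = 0.1). They did overlap on the Watson strand, with a difference of 10.2 points, and in intron 2, with 11.1 points (exact permutation p = 0.3 each). On the Crick strand, in intron 1 and in exon 2 they did not, with differences of 18.9, 13.5 and 19.3 points (exact permutation p = 0.1 each). The difference at the other loci was 9.38 points, and the excess at Letmd1 of 5.63 points did not stand out from the replicate spread (exact permutation p = 0.4). It was 2.80 points without Tet2kd replicate 2 and 9.09 points without Tet2kd replicate 1. At single cytosines, 33 of 36 means were higher in Tet2kd, from -3.76 to 27.8 points with a median of 14.9, beside a median of 6.55 at the other CpG cytosines. Of the 36, 0 passed the quasi-binomial test after adjustment, where 3.65% of all CpG cytosines did as rises, while 22 of the 36 had an unadjusted p under 0.05, beside 46.9% of all CpG cytosines. Fisher's exact test on summed counts, which leaves out the spread between replicates, called 31 as rises, beside 75.3%. The groups did not overlap at 20 of the 36, with Tet2kd higher, beside 49.2% of all CpG cytosines, and at 0 with Tet2kd lower, beside 1.3%. Of these 20, 18 were Crick cytosines, and the median SD of the Tet2kd replicates was 6.05 points on the Crick and 14.9 on the Watson strand.

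The 3 largest oxBS-seq rises without overlap were at 100300109, 100300203 and 100300150. The Crick cytosine 100300203 in exon 2 had 42.6%, 36.8% and 41.0% in v6.5, against 61.6%, 73.3% and 66.2% in Tet2kd, a rise of 26.9 points (adjusted p = 0.101, quasi-binomial test). Its BS-seq values were 45.8%, 46.7% and 51.0% in v6.5, against 74.2%, 76.2% and 75.5% in Tet2kd (adjusted p = 0.00915, quasi-binomial test). The Crick cytosine 100300150 had 21.7%, 25.6% and 31.0% in v6.5 oxBS-seq and 42.9%, 66.0% and 46.7% in Tet2kd oxBS-seq (adjusted p = 0.37, quasi-binomial test).

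BS-seq minus oxBS-seq was positive in each of the 6 replicates, at 2.54, 3.64 and 6.71 points in v6.5, against 16.4, 1.96 and 8.05 points in Tet2kd. The mean was 6.54 ± 5.38 points (SD, n = 6, exact sign-flip permutation p = 0.031, the smallest that 6 allow). The other CpG cytosines gave 2.86 ± 1.05 points, also positive in each of the 6 replicates (exact sign-flip permutation p = 0.031). The genotypes overlapped in this measure at Letmd1 (exact permutation p = 0.5), and the highest value, 16.4, came from Tet2kd replicate 1.

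Proportions of the 3 states were then obtained with the Lux model, which combines both assays and corrects for incomplete conversion and oxidation by means of the control DNA. The C proportion over the 36 cytosines was 0.60, 0.608 and 0.576 in v6.5, against 0.405, 0.403 and 0.394 in Tet2kd. It was lower in Tet2kd at all 36, by 0.194 on average (exact permutation p = 0.1). The 5mC proportion was 0.344, 0.276 and 0.319 in v6.5, against 0.361, 0.496 and 0.406 in Tet2kd, 0.108 higher with no overlap (exact permutation p = 0.1). On the Watson strand alone the 5mC difference was 0.0570 and the groups overlapped (exact permutation p = 0.4), and without Tet2kd replicate 2 it was 0.0625 over both strands. The 5hmC proportion was 0.0566, 0.116 and 0.105 in v6.5, against 0.233, 0.101 and 0.20 in Tet2kd. These overlapped, with a difference of 0.0855 (exact permutation p = 0.3). That difference was 0.0385 with conversion and oxidation taken as complete, and from 0.0558 without Tet2kd replicate 1 to 0.134 without Tet2kd replicate 2. At the other loci the mean 5mC difference was 0.0880 and the mean 5hmC difference was -0.0086. The Letmd1 excess was 0.0201 for 5mC and 0.0941 for 5hmC, and neither stood out from the replicate spread (exact permutation p = 0.8 and 0.2). Without Tet2kd replicate 2 the 5mC excess was -0.0245 and the 5hmC excess 0.140, and without Tet2kd replicate 1 they were 0.0556 and 0.0604. With conversion and oxidation taken as complete they were 0.0622 and 0.0497.

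Across single cytosines the 5mC mean was higher in Tet2kd at 31 of the 36 and the 5hmC mean at 34 of the 36. At the other CpG cytosines these counts were 292 and 164 of 348. Every Tet2kd replicate exceeded every v6.5 replicate in 5mC at 15 of the 36, beside 46.1% of the 384. For 5hmC this held at 7 of the 36, beside 9.38%. In intron 1 the 5hmC proportion did not overlap between genotypes, at 0.0342, 0.0715 and 0.0672 in v6.5, against 0.183, 0.0985 and 0.224 in Tet2kd (exact permutation p = 0.1). This held on its 7 Watson cytosines, which include 100300108, and not on its 7 Crick cytosines, where the 5hmC proportion was 0.0215, 0.0790 and 0.0763 in v6.5, against 0.147, 0.0637 and 0.181 in Tet2kd (exact permutation p = 0.3). BS-seq minus oxBS-seq overlapped in intron 1 too (exact permutation p = 0.3). In exon 2 and intron 2 the 5hmC proportion overlapped.

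**Figure D4:**
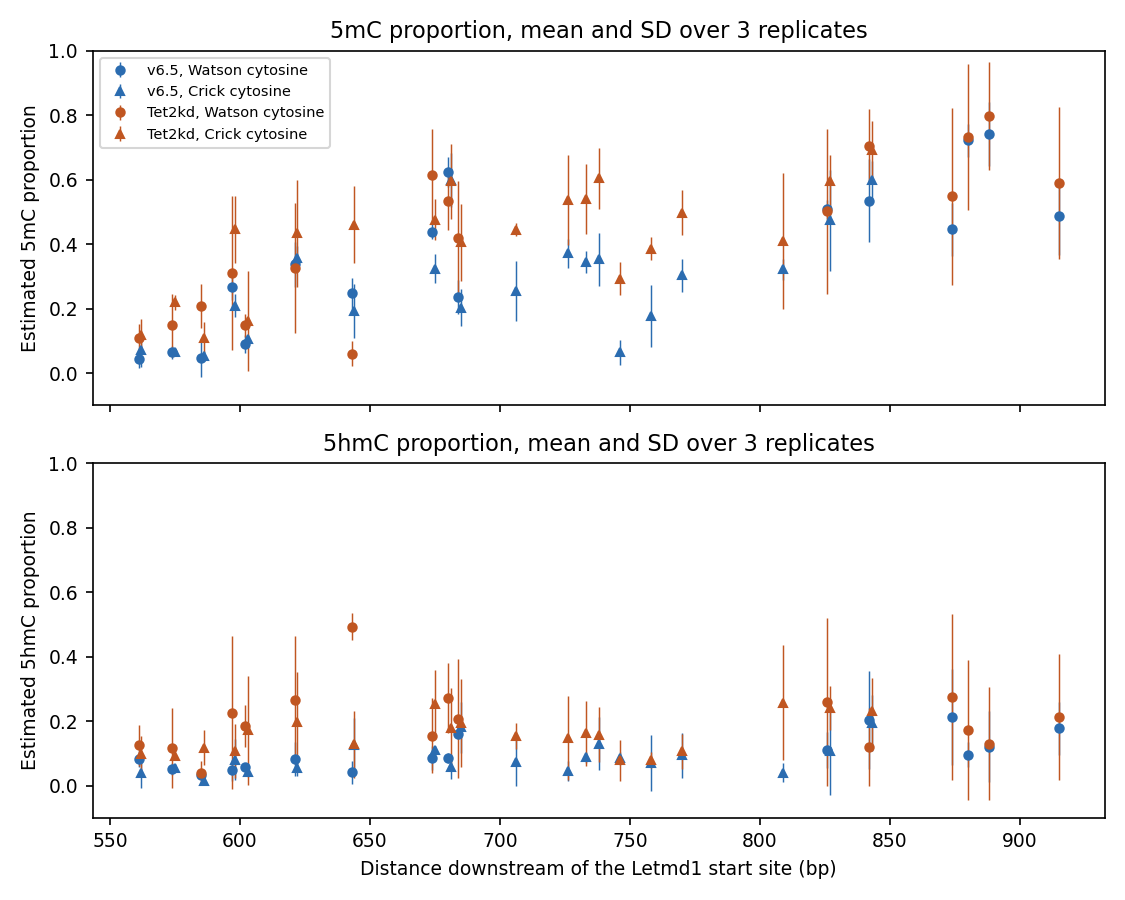
Estimated proportions of 5mC (top) and 5hmC (bottom, vertical axes from -0.1 to 1) against distance downstream of the Letmd1 start site (bp, horizontal axis), as the mean and SD over 3 replicates, with circles for Watson and triangles for Crick cytosines. Most SD bars of the 2 genotypes overlap, and the Watson cytosine at 643 bp stands apart with a Tet2kd 5hmC proportion of 0.493.

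A Bayes factor weighs a genotype difference in the 3 proportions against none. It exceeded 1 at 5 of the 36 cytosines, beside 7.29% of the 384, and 3 at 1 of them, beside 1.3%. The factors were 28.7 at 100300108, 2.20 at 100300292, 1.84 at 100300140, 1.74 at 100300203 and 1.03 at 100300109. Their median over the 36 was 0.491. With another random seed the factor at 100300108 was 50.8 and 7 cytosines exceeded 1, so values close to 1 are not settled by the draws.

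The Watson cytosine 100300108 lies 643 bp past the start, 8 bp before exon 2, in the printed stretch that crosses the border. Its BS-seq C share was 25.2%, 30.6% and 21.3% in v6.5, against 53.8%, 55.3% and 55.6% in Tet2kd. The groups were apart, with a rise of 29.2 points (adjusted p = 0.0112, quasi-binomial test). In oxBS-seq it was 36.2%, 27.8% and 22.8% in v6.5, against 28.1%, 19.9% and 31.9% in Tet2kd, on 64 to 474 read-outs. These overlapped, and the mean difference was -2.28 points. The estimated 5hmC proportion was 0.0133, 0.0806 and 0.030 in v6.5, against 0.445, 0.527 and 0.507 in Tet2kd. The 5mC proportion there was 0.302, 0.230 and 0.211 in v6.5, against 0.102, 0.0247 and 0.0528 in Tet2kd. It was the only one of the 36 at which every Tet2kd replicate lay below every v6.5 replicate in 5mC, beside 1.56% of the 384. The oxBS-seq shares given above, which carry no correction for oxidation, overlapped there. The study describes 5mC at this cytosine as unaffected, with more 5hmC in Tet2kd. Whether the oxidation parameters fixed here account for the different 5mC estimate was not tested.

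Its Crick partner, 100300109, read on 1190 to 10813 read-outs, had a higher Tet2kd mean in both assays. In BS-seq it had 29.5%, 29.7% and 35.7% in v6.5, against 57.1%, 58.1% and 57.3% in Tet2kd, a rise of 25.9 points (adjusted p = 0.0093, quasi-binomial test). In oxBS-seq it had 27.3%, 20.6% and 24.3% in v6.5, against 46.7%, 60.7% and 48.1% in Tet2kd, the largest oxBS-seq difference of the 36 at 27.8 points (adjusted p = 0.141, quasi-binomial test). Its 5hmC proportion was 0.0304, 0.193 and 0.154 in v6.5, against 0.169, 0.0108 and 0.203 in Tet2kd, which overlapped. Watson minus Crick oxBS-seq C share at this pair averaged 4.85 points in v6.5, against -25.2 points in Tet2kd, a difference between genotypes that was not tested for the pair.

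**Figure D5:**
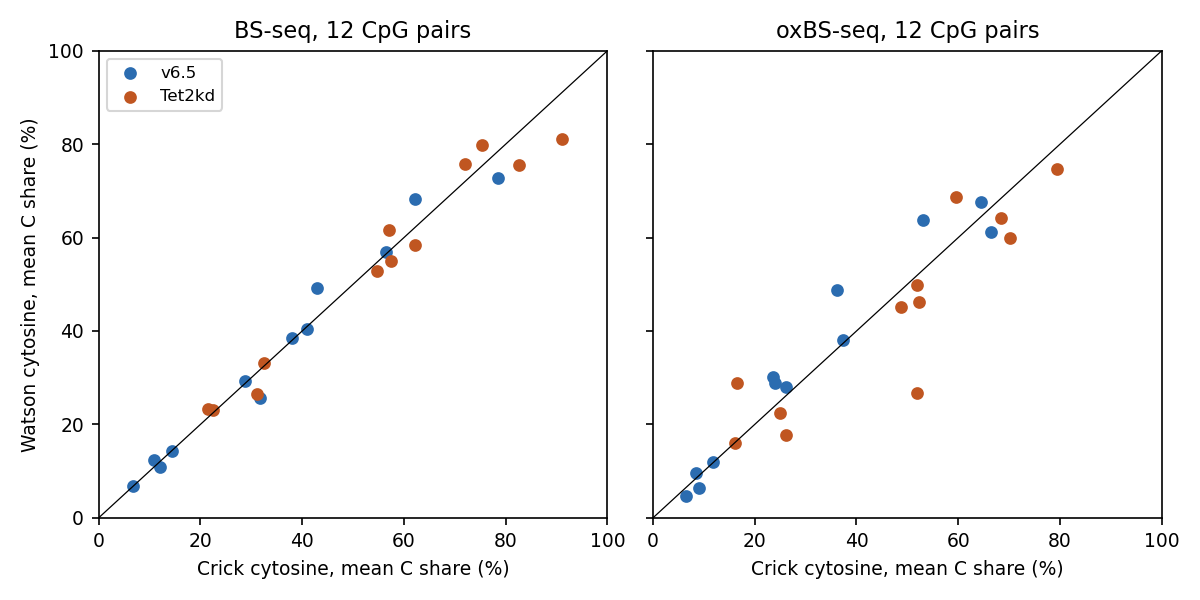
Mean C share (%) of the Watson (vertical axis) against the Crick cytosine (horizontal axis) of 12 CpG pairs, by BS-seq (left) and oxBS-seq (right), each point a mean of 3 replicates, with the line of equal shares. The BS-seq points lie along the line, and the oxBS-seq Tet2kd points scatter more.

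Over the 12 pairs no difference between the strands was detectable in the BS-seq mean. Watson minus Crick averaged 2.35, -0.217 and -1.60 points in the v6.5 replicates, against 3.26, -3.05 and -3.77 points in the Tet2kd replicates (exact sign-flip permutation p = 0.6875 over 6 samples). In oxBS-seq it was 2.41, 7.49 and -2.0 points in v6.5, against -8.97, -1.97 and -0.451 points in Tet2kd (exact sign-flip permutation p = 0.71875). The genotypes overlapped in both assays (exact permutation p = 0.6 and 0.3). Across the pairs the Watson and Crick means had Pearson's r of 0.987 in v6.5, against 0.98 in Tet2kd BS-seq, and of 0.974 and 0.901 in oxBS-seq. By the mean over all 12 samples the pair 100300139 and 100300140 differed most. Watson minus Crick was 5.02 points in BS-seq, with Watson higher in 5 of 6 samples, and 10.9 points in oxBS-seq, with Watson higher in 5 of 6 (exact sign-flip permutation p = 0.21875 and 0.09375). In BS-seq alone 2 other pairs, named after their values were seen, kept their sign in all 6 samples and ran in opposite directions. Watson minus Crick averaged -7.88 points at 100300307 and 100300308 in intron 2 and 5.33 points at 100300145 and 100300146 in exon 2 (exact sign-flip permutation p = 0.031 each, 0.188 adjusted over the 12 pairs).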

How the data were processed

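Targeted BS-seq and oxBS-seq files of 12 samples were analysed. The authors aligned reads with Bismark 0.7.12 and Bowtie2 to mm9 and lambda DNA and deposited, per cytosine, counts of C and T read-outs without normalization. The deposited percent of C read-outs was used only to check them. Positions were raised by 1, and strand and context were read from the mm9 sequence. The members, lists and tests were chosen with earlier results of these data known. A coverage minimum of 10 was applied in each sample. Means per replicate were compared by exact permutation tests, and single cytosines by a quasi-binomial F test (numpy and scipy, dispersion at least 1, Benjamini-Hochberg adjustment, threshold 0.05). The F test was run on simulated data with a smaller replicate spread than the median of Tet2kd oxBS-seq here, so that setting was not checked. The Lux model was fitted per cytosine by numerical integration instead of sampling, with a Dirichlet prior of 0.8, and its conversion and oxidation parameters were fixed from Watson-strand control cytosines, not estimated jointly. Bayes factors used 1000 draws. Named cytosines were the lowest and highest by BS-seq, the 3 largest rises and falls per assay without overlap (no falls existed), the pair of largest strand difference, those with a Bayes factor above 1, and 100300108, which the study names by position. Alternatives are given in the closing section.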

Additional observations from a re-analysis of the deposited data

Results flagged for a closer look

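Outside the CpG cytosines, one non-CpG cytosine of the locus drew attention because its C share lay above that of the unmethylated control DNA in all 12 samples. The Crick cytosine 100300283 in intron 2, read in CHH context in the mm9 sequence, had C shares from 19.858% to 52.472%. In BS-seq it had 22.6%, 27.3% and 30.2% in v6.5, against 44.2%, 51.9% and 52.5% in Tet2kd. In oxBS-seq it had 24.4%, 19.9% and 26.3% in v6.5, against 25.5%, 36.7% and 34.6% in Tet2kd. Depth there was 1123 to 10577 read-outs. The other 129 non-CpG cytosines of the locus, pooled within each sample, had 0.158% to 0.278% over the samples, and the control DNA 0.141% to 0.401%. Single cytosines among the 129 went higher. The next highest, 100300420, had a mean of 2.69% over the 12 samples, and 100300299 reached 11.9% in a sample. The context is that of the reference. v6.5 is a hybrid mouse line, and the sequence of these cells at this site was not analysed here. This cytosine was singled out after its values were seen.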

How the results depend on the processing

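The direction, though not the size, of the BS-seq, oxBS-seq, C, 5mC and 5hmC differences over the 36 cytosines was the same under every alternative run. With 3 against 3, or 2 against 3, exact tests cannot go under 0.1, so they say nothing of stability. The 19 BS-seq rises became 36 with Fisher's exact test on summed counts, 34 adjusted over CpG cytosines alone, 7 at a threshold of 0.01, 2 on the Watson strand alone and 0 to 6 without 1 replicate. With the replicate block 0 of the 19 remained called. Whether replicate numbers pair the samples across genotypes was not settled. In BS-seq, same-number correlations of deviations over CpG cytosines were 0.179, 0.077 and 0.115, against -0.118 to 0.006 between different numbers. In oxBS-seq they were 0.093, -0.087 and -0.175, against -0.172 to 0.281. The paired difference of BS-seq means had an exact sign-flip p of 0.25, the smallest 3 pairs allow, on an unchanged 19.5056 points. The 0 oxBS-seq calls became 31 with Fisher's exact test and 13 adjusted over CpG cytosines alone. The 5 Bayes factors above 1 became 3 with ideal parameters, 1 above a threshold of 3, and 3 to 15 without 1 replicate, 15 without Tet2kd replicate 2. BS-seq minus oxBS-seq was 4.58 to 7.46 points without 1 replicate, with p = 0.0625 each in the exact test, the smallest 5 replicates allow. Without 1 replicate, Watson minus Crick ranged from -1.26 to 0.147 points in BS-seq (0.0042 and 0.147 without Tet2kd replicates 2 and 3) and from -2.20 to 1.10 in oxBS-seq (1.10 without Tet2kd replicate 1). The 5mC excess at Letmd1 ranged from -0.0245, without Tet2kd replicate 2, to 0.0556, and was 0.0622 with ideal parameters and 0.0509 at a coverage minimum of 100. The 5hmC difference of 0.0855 was 0.0385 with ideal parameters and 0.0450 by the frequency method, which subtracts the uncorrected shares. The oxBS-seq excess was 8.29 points at a coverage minimum of 100 and 9.09 without Tet2kd replicate 1 (exact permutation p = 0.1 each), against 5.63 in all. The oxBS-seq difference of the cytosine with the highest Bayes factor ranged from -5.35 to 1.37, with 1.37 and 1.10 without v6.5 replicate 1 and Tet2kd replicate 2. The causes were not tested. No pair had 100 read-outs on both strands, so that minimum gave no strand value, and it left 17 cytosines, all Crick. Watson cytosines had a lower median depth, and the part of depth in their oxBS-seq spread was not tested.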
